A study of Mus musculus with 15 samples.

Results

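A set of 7 transcription factors and coactivators of the muscle gene programme is described here: Myocd (probe set 214384_at), Mrtfa (223701_at), Mrtfb (239719_at), Srf (20807_at), Mef2a (17258_at), Mef2c (17260_at) and Mef2d (17261_at). They were chosen by name, each through the 1 probe set whose Entrez Gene ID carries that symbol, and make 7 of the 25206 probe sets of the array. Gene expression was measured on Affymetrix Mouse Gene 2.0 ST arrays in 15 mouse samples on the path from induced pluripotent stem cells (iPSC) to smooth muscle. The 5 groups of 3 samples were undifferentiated iPSC (day 0), Kdr+ cells taken by sorting on day 5 (Kdr, or Flk-1, is a receptor for VEGF found on early mesoderm), candidate smooth muscle cells sorted at day 13 into an Acta2hrGFP- and an Acta2hrGFP+ fraction, and Acta2hrGFP+ primary smooth muscle cells of the mouse aorta, the study's positive control. In the Acta2hrGFP reporter, green fluorescent protein (GFP) reads out the gene of smooth muscle actin, Acta2. The labels name no strain, age, sex, culture medium or clone, nor whether the aortic cells were cultured. All cultured groups come from 1 Acta2hrGFP iPSC reporter line, and the aortic cells were chosen by the same reporter.

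SRF is a DNA-binding factor of the MADS box family that recognises a short element called the CArG box. It activates little by itself and takes its specificity from partners: myocardin, encoded by Myocd, drives the contractile genes of smooth and heart muscle, the myocardin-related factors MRTF-A and MRTF-B carry signals from the actin cytoskeleton, and the ternary complex factors (TCF) direct it to immediate early genes after growth factor signals. MEF2 proteins are relatives of SRF within the MADS box family that bind a different A/T-rich site, act with other muscle factors, and are held in check by class IIa histone deacetylases. In development MEF2C is known for its role in the heart and the vessels.

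Promoter sequences are shown for Srf and Mef2a, the members whose windows held the most such elements, and for Acta2 and Myl9, contractile targets measured here. Each window runs from 250 bases before to 50 bases after the start of the gene in RefSeq (GRCm38.p6), 5′ to 3′ on the gene's strand. Capitals mark CArG boxes (2 C, then 6 A or T, then 2 G), CArG-like boxes with at most 1 G or C among the 6 inner bases, and the MEF2 site, searched on both strands.
Srf, chr17:46556113-46556412, minus strand: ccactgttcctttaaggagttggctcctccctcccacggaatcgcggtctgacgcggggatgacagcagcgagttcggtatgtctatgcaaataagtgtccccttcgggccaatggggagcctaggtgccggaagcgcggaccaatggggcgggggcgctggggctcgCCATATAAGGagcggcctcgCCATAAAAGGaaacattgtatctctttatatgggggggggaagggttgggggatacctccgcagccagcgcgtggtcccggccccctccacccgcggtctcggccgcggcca
Mef2a, chr7:67372809-67373108, minus strand: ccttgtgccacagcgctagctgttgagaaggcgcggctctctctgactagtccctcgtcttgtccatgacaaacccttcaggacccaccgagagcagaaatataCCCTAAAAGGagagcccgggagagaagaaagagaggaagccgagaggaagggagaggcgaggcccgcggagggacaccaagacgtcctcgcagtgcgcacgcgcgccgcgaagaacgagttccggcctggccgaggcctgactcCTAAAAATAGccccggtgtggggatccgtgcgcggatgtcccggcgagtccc
Acta2, chr19:34255324-34255623, minus strand: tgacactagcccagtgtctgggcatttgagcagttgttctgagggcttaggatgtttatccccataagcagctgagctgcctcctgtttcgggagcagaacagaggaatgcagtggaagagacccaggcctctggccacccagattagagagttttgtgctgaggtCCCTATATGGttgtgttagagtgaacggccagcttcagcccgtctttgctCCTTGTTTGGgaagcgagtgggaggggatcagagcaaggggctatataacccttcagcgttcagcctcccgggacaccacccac
Myl9, chr2:156775214-156775513, plus strand: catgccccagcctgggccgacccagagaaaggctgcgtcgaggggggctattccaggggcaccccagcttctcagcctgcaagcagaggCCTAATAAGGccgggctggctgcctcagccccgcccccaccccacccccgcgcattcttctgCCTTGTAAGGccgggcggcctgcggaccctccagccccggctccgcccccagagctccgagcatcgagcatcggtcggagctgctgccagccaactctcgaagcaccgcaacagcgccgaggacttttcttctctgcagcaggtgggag

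The Srf window held 2 exact CArG boxes, CCATATAAGG from base -82 to -73 and CCATAAAAGG from base -62 to -53 relative to the start. Among the 6 members with a window, Srf was the 1 gene with an exact box, against 1.81% of all 27025 genes with a window in the table. Mef2a held the CArG-like CCCTAAAAGG from -146 to -137 and a MEF2 site, CTAAAAATAG, from -2 to 8. Mrtfa held a CArG-like box (CCTAAATCGG, -124 to -115) and Mrtfb a MEF2 site (TTATTTTTAA, -165 to -156). CArG-like boxes, exact ones included, were found in 11.3% of all genes and MEF2 sites in 3.7%. Acta2 held CArG-like boxes at -84 to -75 (CCCTATATGG) and -34 to -25 (CCTTGTTTGG). Myl9, a myosin light chain of smooth muscle, held 1 exact box, CCTAATAAGG at -161 to -152, and the CArG-like CCTTGTAAGG at -99 to -90. A match is a description of the letters and not evidence of binding, and some MEF2 sites can coincide with a TATA box.

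The deposited values are log2 expression after robust multi-array averaging (RMA), with sample medians from 4.08 to 4.29. They carry no call of presence, so the low levels of Myocd at day 0 and of Mef2c at days 0 and 5 are not shown to exceed background. Folds against these levels rest on values near or below the sample medians. Levels are compared between groups for 1 gene at a time and never between genes. The number of arrays, 3 per group, limits the precision of every value. The samples are biological triplicates per the labels, with no more detail on separate cultures or animals. Each p-value of the main fit rests on 1 spread per gene, pooled over the triplicates of all 5 groups and moderated across probe sets. It thus includes the spread of groups outside the comparison. In sorted bulk RNA, fewer cells of a type and less RNA per cell cannot be told apart. Both day 13 samples numbered 3 stood apart from those numbered 5 and 6 in several members, most of all Mef2a and Mef2d, and for those genes the main values are given with and without them. Differences were tested with limma over all 25206 probe sets at an adjusted p under 0.05 (Benjamini-Hochberg), and "higher", "lower", "rose" and "fell" below refer to that threshold. Median centring of the arrays moved a sample median by up to 0.107 and cyclic loess by up to 0.0805 on the log2 scale, so differences are relative to shifts of that size.

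**Figure D1:**
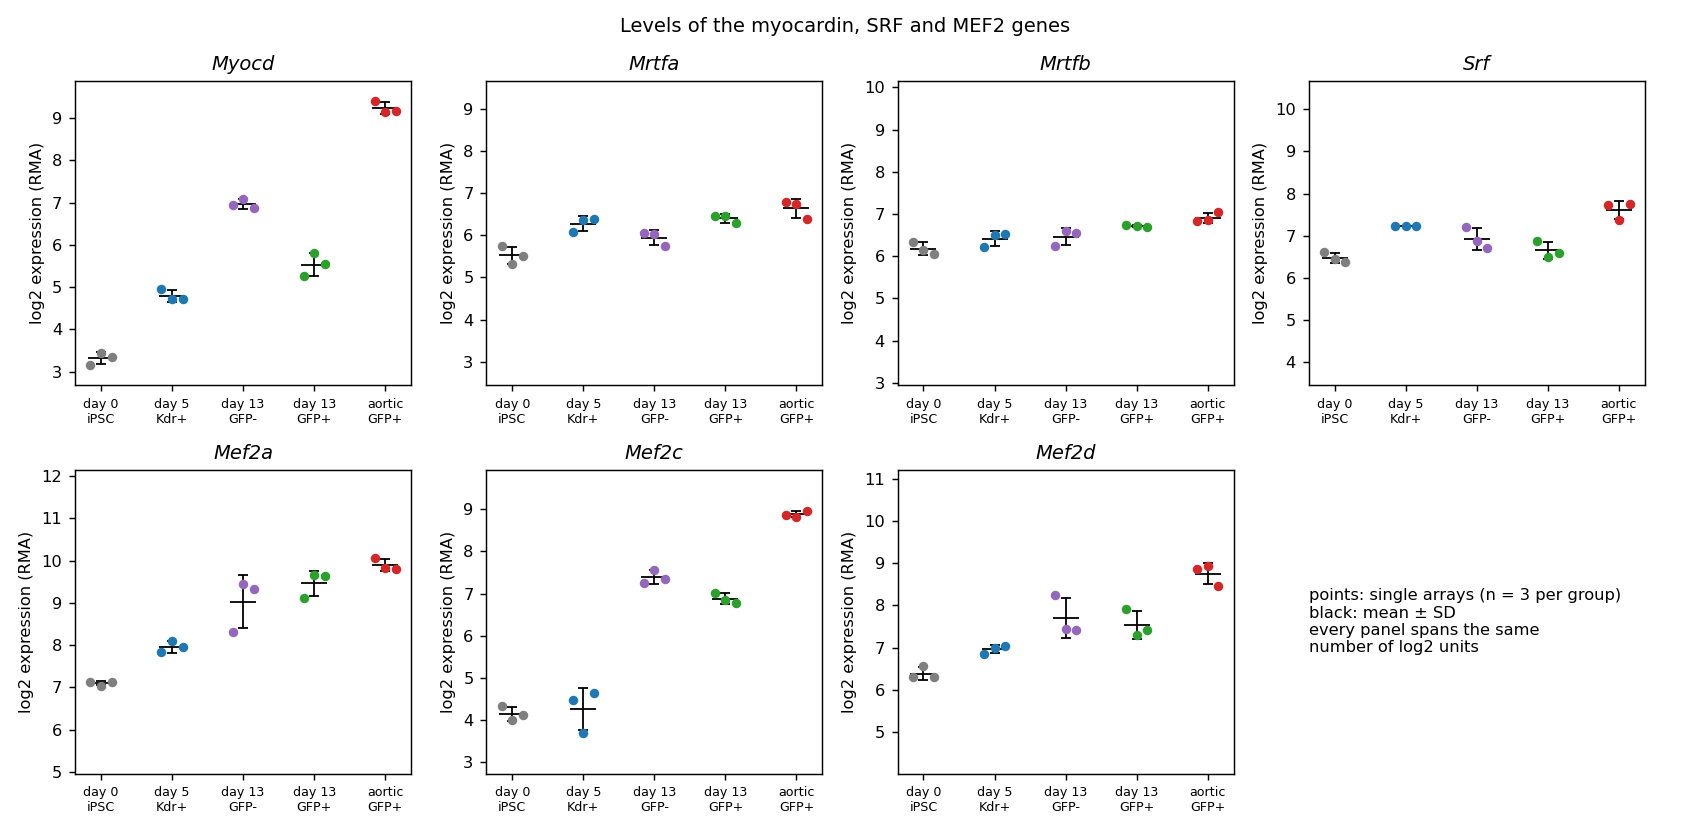
Log2 expression (RMA) of the 7 genes in the 15 samples, with 1 point per array, the mean and the SD (n = 3 per group). Every panel spans the same number of log2 units. Myocd runs from a mean of 3.31 at day 0 to 9.24 in the aortic cells, whereas Mrtfb stays between 6.18 and 6.91.

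Myocd, the coactivator that switches on contractile genes, had the widest range of the 7 genes and was ordered in the same way by every sample. At day 0 the samples read 3.16, 3.44 and 3.34, at day 5 4.95, 4.72 and 4.71, in day 13 GFP- cells 6.95, 7.09 and 6.87, in day 13 GFP+ cells 5.25, 5.81 and 5.54, and in aortic cells 9.41, 9.14 and 9.18. No 2 groups overlapped, and the GFP- fraction stood between the GFP+ fraction and the aorta. All 4 steps between neighbours in this order passed the test, from day 0 to day 5 (log2 difference 1.48, SE 0.147, adjusted p = 1.1e-06), to day 13 GFP+ (0.74, adjusted p = 0.000818), to day 13 GFP- (1.44, adjusted p = 3.34e-05) and to the aorta (2.27, adjusted p = 4.76e-09). The group means spanned 5.93 log2 units, a measured 61-fold between day 0 and the aorta. Myocd ranked 53 by size among the 5866 probe sets higher in the aorta than at day 0, and 86 among the 4109 higher in day 13 GFP- cells than at day 0.

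At day 13 Myocd was lower in the fraction that was sorted for Acta2 reporter activity. It stood at 5.53 ± 0.278 in GFP+ and 6.97 ± 0.112 in GFP- cells (SD, n = 3), a 2.71-fold higher level in the GFP- fraction. Among the 634 probe sets lower in GFP+ cells it ranked 97 by size. Samples of equal number differed by -1.70 (number 3), -1.28 (number 5) and -1.33 (number 6), GFP+ minus GFP-. Without both samples numbered 3 the difference was -1.30 (adjusted p = 0.000514). Myocd was the 1 member past the threshold in this comparison, where 2.02% of all probe sets were higher and 2.52% lower in GFP+ cells, and 3 of the 7 members had an unadjusted p under 0.05. Its contractile targets ran the other way or did not pass. Tagln (transgelin) was higher in GFP+ cells by 1.04 (SE 0.165, adjusted p = 0.00167), and Acta2, the gene behind the sort, stood at 11.32 in GFP+ and 10.67 in GFP- cells (difference 0.65, adjusted p = 0.151). Cnn1 (calponin, 0.52, adjusted p = 0.347), Myh11 (smooth muscle myosin heavy chain, 0.28, adjusted p = 0.431) and Smtn (smoothelin, 0.24, adjusted p = 0.306) did not pass.

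Day 13 samples of equal number deviated from their group means together (r from 0.397 to 0.597 across probe sets). Samples of unequal number were not compared, and both samples numbered 3 stood apart in several members. The r values thus do not establish that the replicate numbers pair the day 13 sorts. With the number as a replicate block on the 6 day 13 samples, a fit added after the data were seen, 2130 probe sets passed in place of 1142 and 2 members in place of 1. Myocd stayed lower in GFP+ cells (adjusted p = 0.000944), Mrtfa became higher (0.46, adjusted p = 0.0404), Mef2c came to an adjusted p of 0.0518 (difference -0.51), and Acta2 became higher in GFP+ cells (adjusted p = 0.0362).

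**Figure D2:**
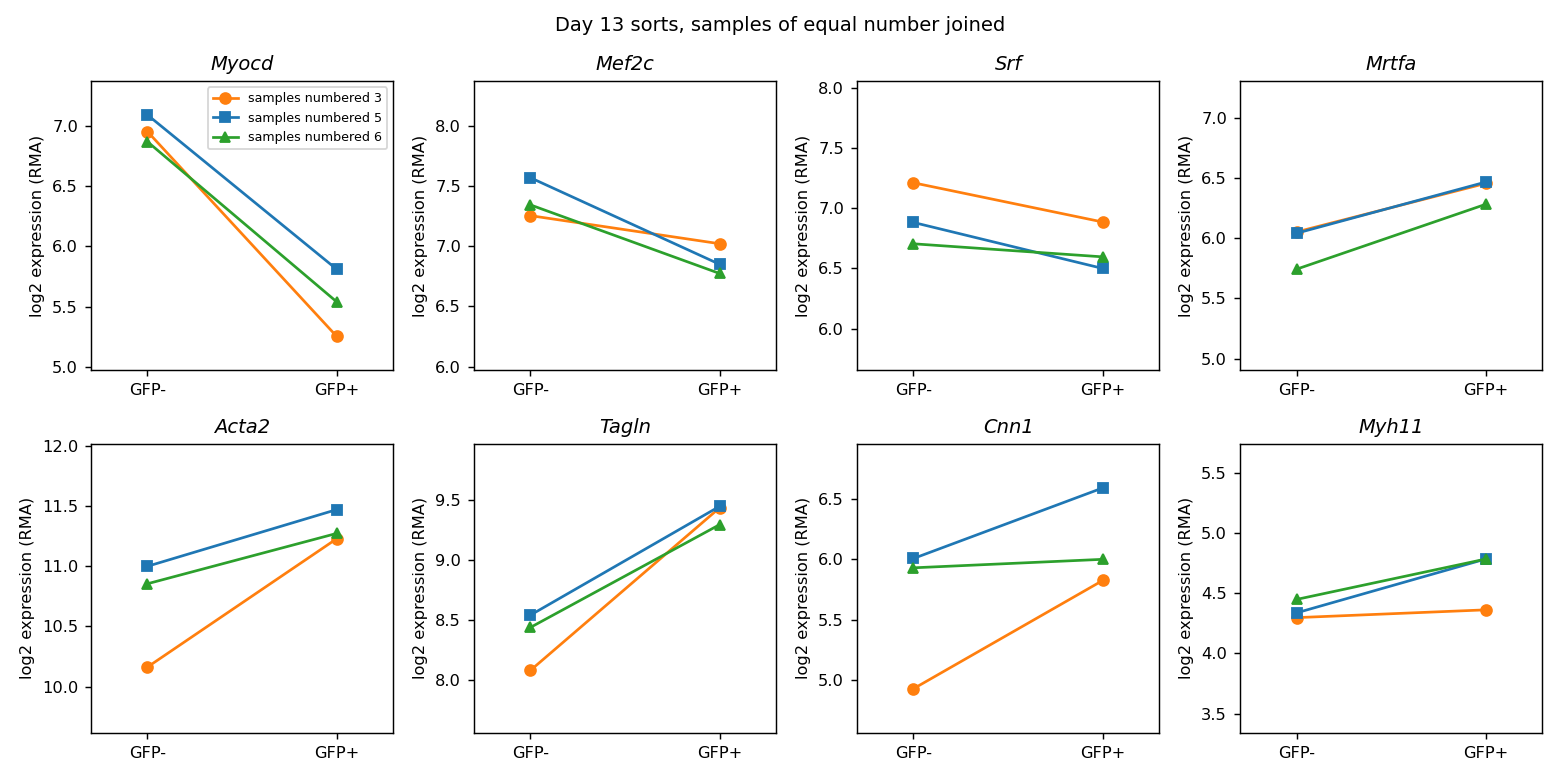
Log2 expression (RMA) in the day 13 GFP- and GFP+ fractions, with lines joining samples of equal number. Myocd falls and Mrtfa, Acta2 and Tagln climb along all 3 lines, and every panel spans the same number of log2 units.

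Some markers of other cell types moved with Myocd between the fractions. Of 9 endothelial markers 3 were lower in GFP+ cells, Cdh5 (-2.10), Tek (-1.44) and Pecam1 (-1.28), and the summed log2 level of the list was 43.1 to 44.7 in GFP- and 37.6 to 38.8 in GFP+ samples. All 5 endoderm markers were lower in GFP+ cells (Apob -3.50, Afp -2.02, Sox17 -1.10, Ttr -1.07, Foxa2 -0.52), with sums of 27.8 to 29.8 in GFP- and 20.6 to 21.3 in GFP+ samples. Of 10 cardiac markers 1 was lower, Tnni3 (-0.86), and the sums overlapped (46.1 to 54.9 in GFP- and 43.9 to 52.1 in GFP+ samples). Of 5 pluripotency markers Sox2 was lower (-1.23), with sums of 19.98 to 21.72 and 18.43 to 20.36. In the other direction, the 6 smooth muscle markers summed to 39.6 to 41.9 in GFP- and 43.5 to 44.8 in GFP+ samples, and 1 of them, Tagln, passed. These sums include Acta2, the gene behind the sort. The 5 fibroblast markers had overlapping sums of 25.7 to 32.6 in GFP- and 31.2 to 36.9 in GFP+ samples, and 0 of 5 passed. Endothelial Erg had the higher mean in GFP+ cells (6.53 against 6.04) and did not pass. The part of these cells in the Myocd difference was not tested.

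The MRTF genes moved over a much narrower range. Mrtfa, which carries actin signals to SRF, read 5.74, 5.32 and 5.51 at day 0, 6.07, 6.35 and 6.39 at day 5, 6.05, 6.04 and 5.74 in day 13 GFP- cells, 6.45, 6.46 and 6.28 in day 13 GFP+ cells and 6.78, 6.75 and 6.39 in the aorta. The 3 day 0 samples were at or below the lowest of every other group, the lowest GFP- sample coming within 0.01 of the highest day 0 sample, and the upper 3 groups overlapped. Between neighbours in the order of means only the lowest step passed, from day 0 to day 13 GFP- (0.42, adjusted p = 0.0405). Mrtfb, its close relative, read 6.06 to 6.34 at day 0, 6.21 to 6.53 at day 5, 6.24 to 6.60 in GFP-, 6.69 to 6.74 in GFP+ and 6.83 to 7.04 in aortic cells. No neighbouring step of Mrtfb passed, though it was higher in the aorta than at day 0 (0.73, SE 0.133, adjusted p = 0.000227) and than at day 5 (0.49, adjusted p = 0.00575).

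Srf itself did not follow Myocd. It read 6.61, 6.46 and 6.37 at day 0, 7.24, 7.24 and 7.24 at day 5, 7.21, 6.88 and 6.70 in day 13 GFP- cells, 6.88, 6.50 and 6.60 in day 13 GFP+ cells and 7.73, 7.37 and 7.76 in the aorta. The day 5 samples lay above every cultured sample of the other groups and below the 3 aortic ones, and the GFP+ fraction overlapped day 0. Srf rose from day 0 to day 5 (0.76, SE 0.152, adjusted p = 0.00107) and was lower in day 13 GFP+ cells than at day 5 (-0.58, adjusted p = 0.00699). In GFP- cells it did not pass against day 5 (-0.31, adjusted p = 0.173). Without GFP- sample 3 that difference was -0.45 (adjusted p = 0.0395), and without both day 13 samples numbered 3 the adjusted p was 0.0237. No neighbouring step in the order of means passed, the widest being from day 5 to the aorta (0.38, adjusted p = 0.0521), while the aorta stood above day 13 GFP+ cells by 0.96 (1.95-fold, adjusted p = 0.000103).

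Mef2c, the MEF2 gene of the early heart field and of vessel development, was the steepest of its family. It read 4.33, 4.004 and 4.13 at day 0, 4.48, 3.71 and 4.64 at day 5, 7.25, 7.57 and 7.34 in day 13 GFP- cells, 7.02, 6.85 and 6.77 in day 13 GFP+ cells and 8.87, 8.82 and 8.96 in the aorta. Days 0 and 5 overlapped, and every day 13 sample lay at least 2 log2 units above them. Mef2c rose from day 5 to GFP- cells by 3.11 (SE 0.192, 8.65-fold, adjusted p = 1.23e-08), place 103 among 3036 higher probe sets, and to GFP+ cells by 2.61 (6.09-fold, adjusted p = 3.88e-08). The fractions did not overlap, but their difference of -0.51 did not pass (adjusted p = 0.191). The aorta was higher again, by 1.496 over GFP- cells (adjusted p = 1.08e-05) and 2.00 over GFP+ cells (adjusted p = 5.57e-07).

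Mef2a, the most widely expressed gene of the family, climbed earlier. It read 7.14, 7.04 and 7.13 at day 0, 7.83, 8.11 and 7.96 at day 5, 8.30, 9.44 and 9.34 in GFP-, 9.11, 9.65 and 9.63 in GFP+ and 10.07, 9.83 and 9.81 in aortic cells. Sample 3 was the lowest in both day 13 fractions, by more than 1 log2 unit in GFP- cells, and the fractions overlapped. Mef2a rose from day 0 to day 5 (0.86, SE 0.236, adjusted p = 0.0107) and from day 5 to GFP- (1.06, adjusted p = 0.00269) and GFP+ cells (1.498, adjusted p = 0.000101). Without both day 13 samples numbered 3 these last differences were 1.43 (adjusted p = 1.32e-06) and 1.67 (adjusted p = 1.7e-07). The aorta did not pass against GFP+ cells (0.44, adjusted p = 0.16).

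Mef2d, the third MEF2 gene expressed in most tissues, read 6.29, 6.57 and 6.29 at day 0, 6.85, 6.99 and 7.03 at day 5, 8.25, 7.44 and 7.42 in GFP-, 7.91, 7.29 and 7.42 in GFP+ and 8.85, 8.93 and 8.47 in aortic cells. Here sample 3 was the highest in both fractions, opposite to Mef2a, and all day 13 samples lay above day 5. Mef2d was higher in GFP- cells than at day 5 (0.75, SE 0.214, adjusted p = 0.0159), a call that was lost without GFP- sample 3 (0.47, adjusted p = 0.0759), without day 5 sample 3 (0.69, adjusted p = 0.0609) and after median centring (0.57, adjusted p = 0.0733). Without both day 13 samples numbered 3 it was kept (0.47, adjusted p = 0.0291). In GFP+ cells the same difference was 0.58 (adjusted p = 0.0501), and 0.40 (adjusted p = 0.0588) without both. The aorta stood above GFP- cells by 1.05 (adjusted p = 0.000903) and above GFP+ cells by 1.21 (adjusted p = 0.0003). Without both samples numbered 3 these differences were 1.32 (adjusted p = 7.46e-06) and 1.40 (adjusted p = 5.3e-06).

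Read by comparison, 4 of the 7 genes rose from day 0 to day 5 (Myocd, Mrtfa, Srf and Mef2a), where 14.9% of all probe sets were higher and 13.9% lower, and the median difference of the 7 was 0.75 against -0.01 for all. From day 5 to GFP- cells 4 rose (Myocd, Mef2a, Mef2c and Mef2d), beside 12% of all probe sets higher and 13.9% lower, with a median of 0.75 against -0.03. From day 5 to GFP+ cells 3 rose (Myocd, Mef2a and Mef2c) and Srf fell, beside 14.3% higher and 16.9% lower (median 0.58). Both day 13 fractions are set against the same day 5 samples here. Markers of other cell types moved in these comparisons too. In GFP- cells 5 of 5 endoderm markers (Apob 3.97), 6 of 9 endothelial (Cdh5 2.64), 4 of 10 cardiac (Tnnt2 3.39) and 3 of 5 fibroblast markers (Col1a1 4.31) were higher than at day 5, and 1 fibroblast marker, Pdgfra, was lower (-2.51). The summed log2 levels at day 5 and in GFP- cells were 19.8 to 20.3 and 27.8 to 29.8 for endoderm, 33.0 to 35.3 and 43.1 to 44.7 for endothelial, 40.5 to 41.1 and 46.1 to 54.9 for cardiac and 21.8 to 23.6 and 25.7 to 32.6 for fibroblast markers. In GFP+ cells 0 of 5 endoderm markers passed in limma (1 at an unadjusted p under 0.05), and 1 endothelial (Erg 3.02), 3 cardiac and 3 fibroblast markers were higher than at day 5. Again 1 fibroblast marker, Pdgfra, was lower, with means of 6.88 in GFP+ cells and 8.70 at day 5. Of 8 leukocyte markers 1 was higher than at day 5 in GFP- and 2 in GFP+ cells. Their part in the differences of Myocd and the MEF2 genes was not tested. The aorta had 4 genes higher than GFP+ cells (Myocd, Srf, Mef2c and Mef2d), beside 17.7% higher and 19.5% lower (median 0.96 against 0.07). After cyclic loess all 7 were higher in that comparison. Against day 0, 6 genes were higher in GFP- cells, where 16.3% of probe sets were, 6 in GFP+ cells (17.7%) and 7 in the aorta (23.3%). The aorta was higher for 5 genes against day 5 (22.3% of probe sets) and for 7 against GFP- cells (20.2%), of which Mrtfb no longer passed without both day 13 samples numbered 3 (0.34, adjusted p = 0.0604). Median centring changed the split of all calls to 4810 higher and 2805 lower for day 5 against day 0 (3744 and 3505 without it), to 2394 and 4627 for GFP- against day 5 (3036 and 3506), and to 2883 and 5250 for GFP+ against day 5 (3598 and 4269).

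**Figure D3:**
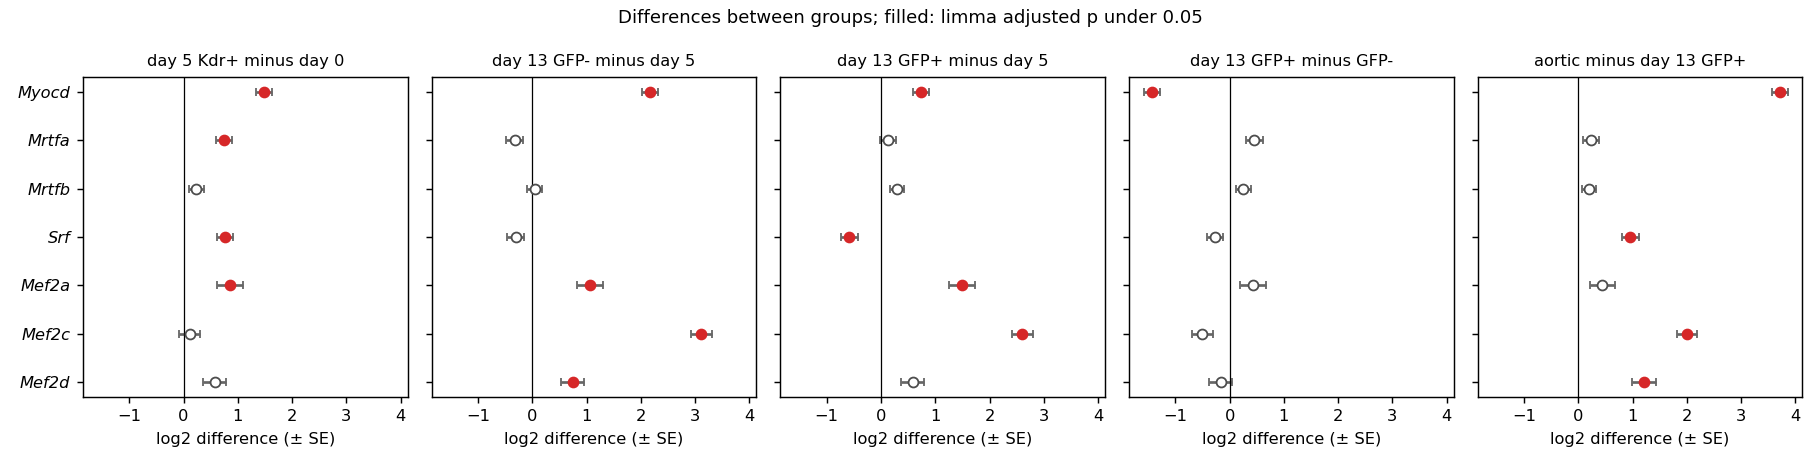
Log2 differences of the 7 genes in the 5 comparisons (points, with the SE of the limma fit), filled where the adjusted p is under 0.05. Myocd and Mef2c carry the widest differences, and in GFP+ minus GFP- cells Myocd alone is filled, at -1.44.

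The position of each gene at day 13 was expressed as a percent of the log2 distance from its day 0 mean to its aortic mean. Myocd stood at 61.7% ± 1.89 in GFP- and 37.5% ± 4.7 in GFP+ cells (SD, n = 3), and Mef2c at 68.4% ± 3.43 and 57.6% ± 2.68. Mef2a stood at 68.7% ± 22.5 and 84.2% ± 10.9, and Mef2d at 55.7% ± 20 and 48.9% ± 13.8. Without the samples numbered 3, Mef2a stood at 81.7% and 90.5% and Mef2d at 44.2% and 41.1% (n = 2). Srf stood at 39.6% ± 22.5 and 15.8% ± 17.6, the lowest GFP+ position of the 7 genes, and at 27.4% and 5.89% without the samples numbered 3. Mrtfa stood at 37.9% ± 15.7 and 78.7% ± 9.26 and Mrtfb at 38.4% ± 26.9 and 72.8% ± 3.27, over a much shorter log2 distance than Myocd or Mef2c. Without GFP- sample 3, Mrtfb stood at 53.8% in GFP- cells. Among the targets, Acta2 stood at 72% and 84.8% and Tagln at 50.8% and 68.7%, in GFP- and GFP+ cells. Cnn1 stood at 13.9% and 22.4%, Smtn at 11.5% and 17.9% and Myh11 at 2.01% and 6.16%. Each gene is scaled to its own day 0 and aortic means, so the percentages inherit the uncertainty of low day 0 levels.

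**Figure D4:**
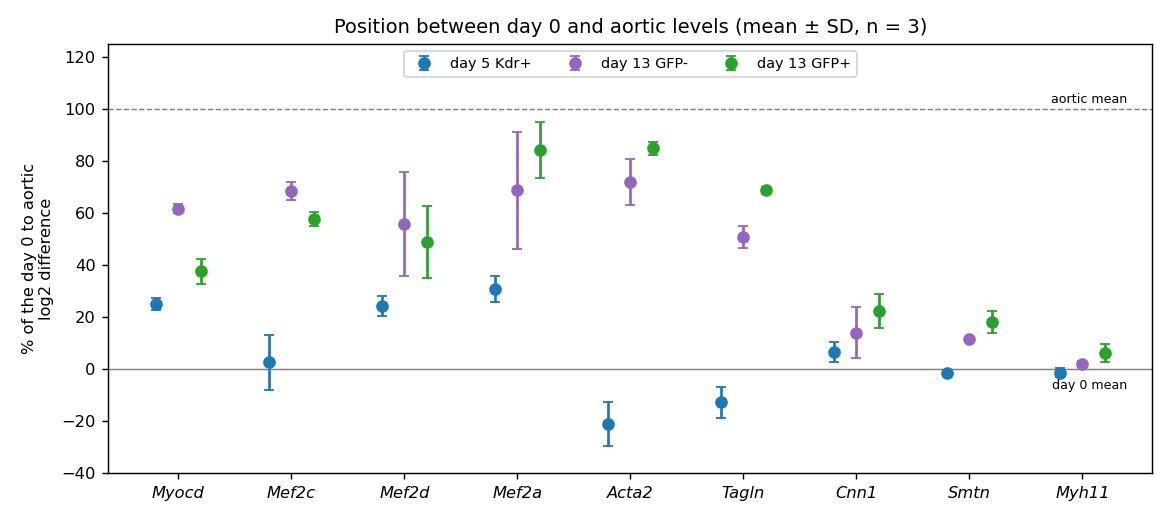
Position of each gene between its day 0 mean (0%) and its aortic mean, in percent of that distance on the log2 scale, as mean and SD of 3 samples for day 5, day 13 GFP- and day 13 GFP+ cells. Myocd reaches 61.7% in GFP- cells while the means of Myh11 are 2.01% and 6.16% in the fractions.

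The smooth muscle genes known to respond to SRF with myocardin, a list of 19 that were all measured, moved upwards from day 5 on. At day 5 5 were higher and 3 lower than at day 0, with Tpm1 (tropomyosin, 1.70) and Itga8 (an integrin of smooth muscle, 1.56) higher and Acta2 (-1.08) and Tagln (-0.75) lower, while Myocd had risen. In GFP- cells 15 rose over day 5 (median 1.01, all probe sets -0.03), led by Acta2 (4.74), Tagln (3.69), Des (desmin, 2.70) and Myl9 (2.35). In GFP+ cells all 19 rose over day 5 (median 1.19), led by Acta2 (5.39), Tagln (4.72), Actg2 (smooth muscle gamma actin, 3.66) and Myl9 (3.58). Between the fractions 5 were higher in GFP+ cells, Actg2 (1.59), Itga8 (1.25), Myl9 (1.23), Tagln (1.04) and Tpm2 (0.82), and the list's median difference was 0.39 beside 0.01 for all probe sets. With the day 13 replicate block 7 were higher, among them Acta2, the gene behind the sort. In the aorta 16 were higher than in GFP+ cells (median 2.30), led by Myh11 (6.38), Synpo2 (5.33), Cnn1 (4.75) and Kcnmb1 (a potassium channel subunit, 4.68). The shares of all probe sets that were higher and lower were 14.9% and 13.9% at day 5 against day 0. Against day 5 they were 12% and 13.9% in GFP- and 14.3% and 16.9% in GFP+ cells. Between the fractions they were 2.02% and 2.52%, and in the aorta 17.7% and 19.5%.

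Cytoskeletal genes of the MRTF type, 17 measured of 18 listed, had calls in both directions. At day 5 10 were higher and 3 lower than at day 0 (median 0.65), with Tgfb1i1 (an adhesion adaptor, 4.07) higher and Ccn2 (-2.01), Tuft1 (-1.69) and Ccn1 (-1.55) lower. From day 5 to GFP- cells 12 rose and 2 fell, and to GFP+ cells 11 rose and 1 fell, in both led by Ankrd1 (5.66 and 5.30), Ccn1 (3.08 and 3.19) and Ccn2 (2.87 and 3.11), secreted matrix proteins in the last 2 cases. Without both day 13 samples numbered 3, 11 rose and 2 fell to GFP+ cells. Between the fractions 1 gene, Tuft1 (-0.85), was lower in GFP+ cells, and with the day 13 replicate block 1 was higher and 1 lower. In the aorta 9 were higher, led by Fhl1 (2.97) and Filip1l (2.64), and 5 lower, led by Ankrd1 (-3.63). Beside these counts, 14.9% of all probe sets were higher and 13.9% lower at day 5 than at day 0. Against day 5 the shares were 12% and 13.9% in GFP- and 14.3% and 16.9% in GFP+ cells. Between the fractions they were 2.02% and 2.52%, and in the aorta 17.7% and 19.5%. Exact CArG boxes lay in the windows of 6 of the 14 genes of this list with a promoter (42.9%), among them Actg1, which was not measured. They lay in 2 of 16 genes of the myocardin type, 2 of 9 of the TCF type and 1.81% of all genes with a window. These 3 lists hold 18, 19 and 14 genes. Tagln and Egr1 are among those without a window, so the shares do not rank the lists.

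Of 14 immediate early genes of the TCF type, all measured, 12 were lower at day 5 than at day 0 (median -1.51), with Fos (-3.38), Fosb (-3.19), Egr1 (-2.97) and Ier3 (-2.72) in front, where Srf was higher. From day 5 8 rose in GFP- cells (median 0.81) and 10 in GFP+ cells (median 1.19), with Ier3 (3.75 and 4.59), Egr1 (2.154 and 3.13) and Fos (2.13 and 2.79) in front. Between the fractions Ier3 was higher in GFP+ cells (0.84). The count of 1 became 3 with the day 13 replicate block, 3 without both samples numbered 3 and 7 with array weights. In the aorta 13 were higher than in GFP+ cells (median 2.48), as Srf was, led by Nr4a1 (4.91), Fosb (4.39) and Fos (3.76). The aortic cells are primary and the GFP+ cells derived from iPSC, and the part of cell source or handling was not tested. Of all probe sets, 14.9% were higher and 13.9% lower at day 5 than at day 0. These shares were 12% and 13.9% in GFP- and 14.3% and 16.9% in GFP+ cells against day 5. They were 2.02% and 2.52% between the fractions and 17.7% and 19.5% in the aorta. Of the 3 ternary complex factors, Elk4 rose (0.71) and Elk1 was lower (-0.39, a call lost after median centring) at day 5, Elk3 rose from day 5 to GFP- (2.22) and GFP+ cells (2.38) together with Elk4 (0.63 and 0.77), and Elk3 was lower in the aorta than in GFP+ cells (-1.40).

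**Figure D5:**
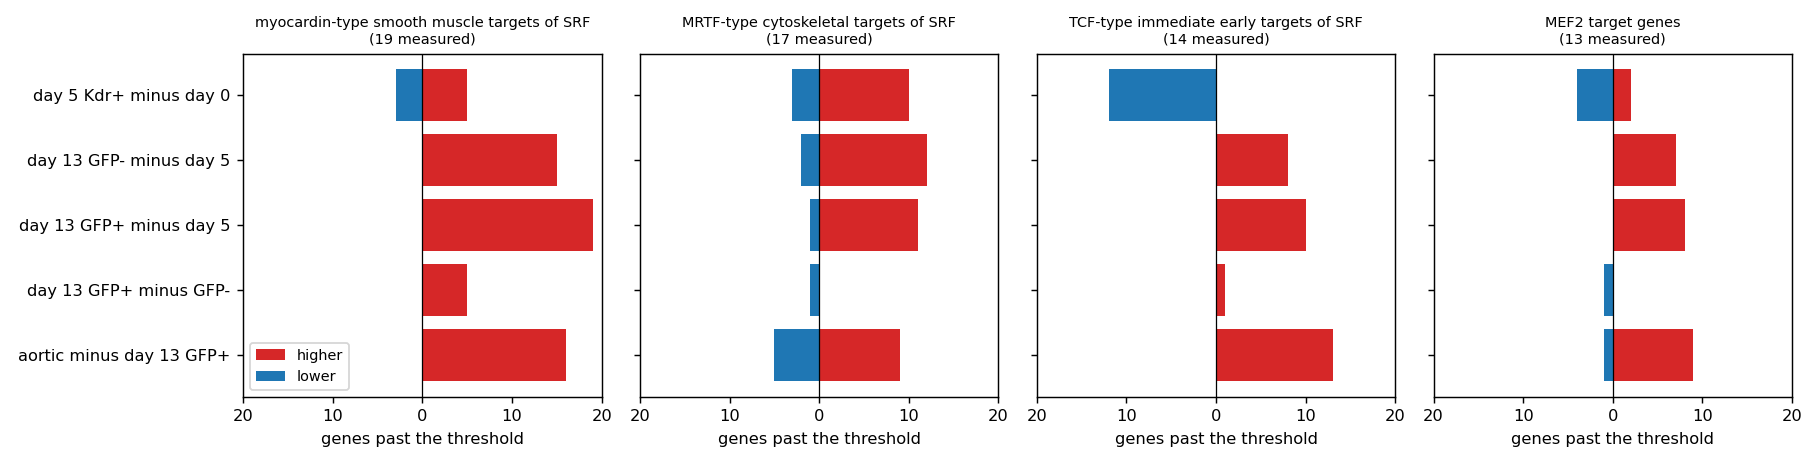
Number of genes past the threshold (limma adjusted p under 0.05) in 4 lists of SRF and MEF2 targets, higher to the right and lower to the left of 0, in the 5 comparisons. All 19 genes of the myocardin type are higher in GFP+ cells than at day 5, and 12 of 14 of the TCF type are lower at day 5 than at day 0.

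Among 16 inhibitors and repressors of myocardin, MRTF or SRF activity, 9 rose and 2 fell at day 5. Msx2 (5.58), Msx1 (2.79) and Hey1 (2.71), homeobox and Notch effector genes, rose while Klf4 (-4.09), a repressor of smooth muscle genes and also a gene of pluripotent cells, fell. From day 5 to GFP- cells 3 rose and 4 fell, with Msx2 at -2.91 and Hdac9 at 1.85, and to GFP+ cells 5 rose and 6 fell, with Msx2 at -4.41 and Fhl2 at 2.30. After median centring the falls numbered 7 and 8. Msx2 (-1.496) and Hey2 (-1.15) were lower in GFP+ than in GFP- cells, as Myocd was. In the aorta 3 were higher, Hey2 (4.11), Klf4 (3.52) and Hdac9 (2.51), and 4 lower than in GFP+ cells. Among 17 activating partners, 7 rose and 2 fell at day 5, led by the cardiac mesoderm factors Gata6 (3.95) and Gata4 (3.73). From day 5, 6 rose and 1 fell in GFP- cells and 4 rose and 3 fell in GFP+ cells, with Prrx1, a mesenchymal homeobox gene (2.37 and 3.66), highest. Between the fractions Prrx1 (1.296) and Csrp2 (0.79) were higher and Gata4 lower (-1.12) in GFP+ cells, and without both samples numbered 3 1 was higher and 1 lower. The aorta had 5 higher, among them Smarcd3 (2.12) and Tbx5 (1.72), and 4 lower, among them Gata4 (-2.96). Of all probe sets, 14.9% were higher and 13.9% lower at day 5 than at day 0. From day 5 these shares were 12% and 13.9% in GFP- and 14.3% and 16.9% in GFP+ cells. For the aorta against GFP+ cells they were 17.7% and 19.5%. The inhibitors had median differences of 0.78 at day 5, 0.05 in GFP-, -0.10 in GFP+ and -0.17 in aortic cells. Those of the activating partners were 0.35, -0.0019, 0.11 and 0.28.

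For the MEF2 genes, 7 of 16 partners and upstream kinases were higher at day 5 than at day 0, led by Prkd1 (a kinase that acts on class IIa deacetylases, 2.80) and Hdac7 (2.41). The list median was 0.32 at that step, where 14.9% of all probe sets were higher and 13.9% lower. From day 5, 3 rose and 4 fell in each fraction, with Camk2d (1.57 in GFP- and 1.91 in GFP+ cells) and Hdac9 (1.85 and 1.503) up and Prkd1 (-1.82 and -2.13) down. After median centring 8 fell in GFP- cells, and after cyclic loess 2 fell in GFP+ cells. Of all probe sets 12% rose and 13.9% fell from day 5 to GFP- cells, and 14.3% rose and 16.9% fell to GFP+ cells. The list medians were -0.16 and 0.0019. Sik1 was higher in GFP+ than in GFP- cells (0.57), a call lost without both samples numbered 3. In the aorta 4 were higher and 4 lower than in GFP+ cells, with Hdac9 (2.51) and Camk2d (1.35) up and the calcineurin gene Ppp3ca (-1.60) and Mapk7 (-0.95) down. After cyclic loess 7 were higher and 4 lower. The list median in the main fit was 0.06, and 17.7% of all probe sets were higher and 19.5% lower. Of 13 listed MEF2 targets 2 rose and 4 fell at day 5, with Klf4 (-4.09) and Klf2 (-2.76) lowest. From day 5, 7 rose in GFP- and 8 in GFP+ cells, led by the sarcomere genes Tnnt2 (3.39 and 3.46) and Myom1 (2.82 and 3.24). Both are known from heart muscle, but the Myom1 mean was highest in aortic cells (9.24, against 5.57 in GFP- and 5.99 in GFP+ cells). Myocd, itself in this list, was the 1 gene of it that passed between the fractions, where 1 gene was also higher with the fixed or random replicate block, 2 after cyclic loess and 3 with array weights. In this list 9 were higher and 1 lower in the aorta than in GFP+ cells. Nr4a1 (4.91) and Klf2 (3.96) were the highest there and Tnnt2 the lowest (-3.63), and the part of cell source or handling was not tested. The median differences of the MEF2 targets were -0.08 at day 5 against day 0, and 0.39 in GFP- and 0.74 in GFP+ cells against day 5. In the aorta against GFP+ cells the median was 2.51. Several genes stand in more than 1 list (Fhl2, Elk1, Csrp1, Klf4, Nr4a1, Hdac9 and other deacetylases), so the counts of different lists are not independent.

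The other marker lists are given beside these values and do not measure the makeup of a sample. At day 0 the mean of Pecam1 was 7.99, as in the aorta. The day 0 sums were 37.5 to 38.1 for leukocyte and 41.8 to 42.3 for endothelial markers. All 6 smooth muscle markers were higher in the aorta than in GFP+ cells, with summed log2 levels of 65.0 to 65.5 against 43.5 to 44.8. In the same comparison 6 of 9 endothelial markers were higher, among them Pecam1 (3.74), with sums of 47.1 to 52.1 in the aorta and 37.6 to 38.8 in GFP+ cells. Of 8 leukocyte markers 6 were higher, among them Cd14 (3.28) and Ptprc (1.72), with sums of 38.4 to 40.3 and 29.3 to 30.4. Of 5 fibroblast markers Dpt (6.29) and Dcn (3.79) were higher and Col1a1 lower (-1.68), and of 10 cardiac markers Ryr2 was higher (1.81) and 3 were lower, with Tnnt2 at -3.63. Of 8 skeletal muscle markers 1 was higher and 1 lower, of 7 neural and neural crest markers 1 was higher, and of 4 mesothelial and 5 pluripotency markers 1 each was lower. The part of these cells in the aortic levels of Myocd, Srf, Mef2c and Mef2d was not tested. From day 0 to day 5 all 5 pluripotency markers were lower, and their sums went from 36.6 to 37.2 down to 23.5 to 23.7.

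Finally, the named genes whose pattern lay closest to each member were listed by the root mean square of the difference over the 15 samples, with each gene centred on its own mean. Among 20745 named probe sets, those closest to Myocd were Pde3a (0.58 log2 units), Angpt2 (0.65), Calcrl (0.65), Lamb2 (0.71) and Rgs4 (0.72). Angpt2 (5.79 in GFP- and 4.70 in GFP+ cells) and Calcrl (6.70 and 5.17) had the higher mean in GFP- cells, as Myocd had, and Lamb2 and Rgs4 the higher mean in GFP+ cells. Closest to Mef2c were Ctsh (0.41), Mr1, Creb5, Pgm5 and Axl (0.48), and closest to Mef2a were Zfhx3 (0.25), Zeb1, Cald1, Ssbp2 and Phf2 (0.29). Among the closest to Mef2d were Trp53inp2 (0.17), Nenf, Naa80 and Atp6v0e2 (0.23). Mrtfa had Alg12 (0.16), Prr14, Ksr1, Dexi and Mrgpre (0.20), and Srf had Scn2b (0.14), Sik3, Dhrs1, Paf1 and Ogfod3 (0.16). A small distance is easier to reach for genes of small range, so the distances are not compared between members, and Mrtfb, whose means span 0.73, was left out.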

How the data were processed

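The deposited values are log2 expression values that the authors obtained from biotin-labelled total RNA on Mouse Gene 2.0 ST arrays. The submitters' processing notes list RMA, affy 1.36.1 and R 2.15.1. No label gives the scale, which was inferred as log2 from the range of the values. The genome build behind the probe sets and the array batches are not given in the sources used here. Of 25206 probe sets, 23740 were named from RefSeq through their Entrez Gene ID, and 25.6% held tied values between samples. No filter was applied.

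All 15 samples were fitted in limma 3.58.1 (R 4.3.3) with 1 mean per group and no block, and p-values were adjusted by Benjamini-Hochberg within each of 10 comparisons (threshold 0.05). The fit was tested on simulated data. Samples of equal number deviated together in the day 13 sorts (r from 0.397 to 0.597, 3 pairs) and not elsewhere (-0.091 to 0.079, 15 pairs). Pairs of unequal number were not compared. Alternatives were a fit on 2 groups, a variance trend, array weights, median centring, cyclic loess, probe sets above the median level, replicate blocks and leaving out samples. The day 13 block and the fit without both samples numbered 3 were added after the data were seen.

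The members and the 9 pathway and 10 marker lists were chosen with earlier results of these data known. A few genes and 1 pathway list that these rules name are not reported here. All members were named, then from each list up to 4 genes with the largest absolute difference past the threshold, the 5 contractile genes Acta2, Tagln, Myh11, Cnn1 and Smtn, and the 5 named genes closest in pattern to each member spanning at least 1 log2 unit. Genes named beyond these from short counts or beside promoters (Tpm2, marker genes) were chosen after their values were seen. Motifs were searched in the RefSeq promoter table (GRCm38.p6).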

Additional observations from a re-analysis of the deposited data

How the results depend on the processing

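Among the log2 differences of the 7 genes in the 5 comparisons and all settings run, 474 values kept their direction and their side of the threshold, 27 passed it where they had not before, 3 no longer passed and 7 changed sign. The 7 that changed sign were small and outside the threshold on both sides. Mef2c at day 5 minus day 0 became -0.0094 after cyclic loess and ranged from -0.0639 (without day 5 sample 6) to 0.401 when samples were left out. Mrtfb in GFP- cells minus day 5 became -0.112 after median centring, -0.0573 without day 5 sample 3 and -0.023 without GFP- sample 5, with a highest value of 0.157. Mrtfa in GFP+ cells minus day 5 became -0.0293 after median centring, and Mef2d in GFP+ minus GFP- cells became 0.111 without GFP- sample 3, with a lowest value of -0.347. The 3 that no longer passed were all Mef2d in GFP- cells minus day 5.

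The count of all probe sets between the fractions was the least stable. It was 1142, fell to 459 when only the 2 fractions were fitted, and rose to 2945 with array weights, with 2 members past the threshold in place of 1 (Mrtfa, 0.55, was the addition). With the day 13 replicate block it was 2130, again with 2 members. Left-out samples gave 653 (without GFP+ sample 6) to 1111, with 729 without GFP- sample 5. With array weights 10102 probe sets passed for GFP- cells against day 5 (6542 without). For the aorta against GFP+ cells, cyclic loess had 7 members past the threshold. Left-out samples gave 3 to 4 members for GFP- against day 5 and 4 to 5 for GFP+ against day 5.

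With the replicate number as a block on the 12 cultured samples, the fractions differed in 1462 probe sets (fixed block) or 1421 (random block, correlation 0.0377). Among the members these blocks moved 1 call, Mef2d in GFP+ cells against day 5 (adjusted p = 0.0457 and 0.049 in limma). No paired analysis was possible for the aorta against GFP+ cells, because no label links their samples. The number 3 occurs in both groups, but the labels do not make it a pair.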

Other observations

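Mef2b, the family member outside the described set, had group means from 3.73 to 4.12 and did not pass in any of the 5 comparisons (limma adjusted p from 0.139 to 0.981). Its highest mean was at day 0, where the other MEF2 genes had their lowest, and the files do not show that it lay above background.

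The same CArG letters, CCTTATAAGG, stood in the RefSeq promoter windows (GRCm38.p6) of Vcl (vinculin, a focal adhesion protein), Cnn2 (a calponin of non-muscle cells) and Filip1l, at bases -227 to -218, -56 to -47 and -62 to -53 from the start. From day 5 to GFP- cells these genes rose by 1.16, 1.08 and 1.299 on the log2 scale, and to GFP+ cells by 1.02, 1.298 and 1.65. Of the 17 measured genes of the MRTF type, 12 and 11 rose in these comparisons. Fhl1, with another exact box, had means of 7.64 at day 5, 7.51 in GFP- and 7.23 in GFP+ cells. At the earlier step, from day 0 to day 5, Vcl (1.11) and Cnn2 (1.32) rose and Filip1l did not pass (0.12, limma adjusted p = 0.792). In the aorta against GFP+ cells, Filip1l (2.64) and Vcl (0.65) were higher, and Cnn2 did not pass (-0.26, adjusted p = 0.154).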
